A study of Mus musculus with 4 samples.

Results

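In a line of mouse keratinocytes, 3 clones with little Krt15 RNA were compared with 3 clones with much of it. A clone is the set of cells that carry the same heritable DNA tag. The low clones carried Tag19, Tag24 and Tag32, and the high clones carried Tag6, Tag20 and Tag28, all in the library labelled Diff_MK. They held 515 cells, 183 in the low and 332 in the high clones, of 6912 kept Diff_MK cells and of 14087 kept cells in the series. The clones were chosen by their Krt15 level in these same cells. Krt15 and every other gene of this comparison are therefore given as descriptions, with no test.

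For cells labelled Diff_MK and for cells labelled MK, the series holds transcriptomes and tag counts of the same droplets, in 1 library of each kind per label. Both come from MK, a line of mouse keratinocytes kept in E low medium with 15% fetal bovine serum. Every sample carries the treatment label Dox, and tagged cells were sorted by their green fluorescence before droplet capture. The labels do not say what Diff stands for or at what time the tags arose. The Diff_MK clones share 1 culture label and 1 library, so they are lineages within a sample and not replicates of a treatment. The 6 clones held between 639503 and 2987048 UMIs each (unique molecular identifiers, 1 per captured RNA molecule). Levels are given as CPM, the UMIs of a gene after scaling the clone to a total of 1000000.

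Keratin 15 is a type I keratin of basal cells of the epidermis and of the hair follicle bulge, where it is widely used as a stem cell marker. Type I keratins pair with type II keratins such as keratin 5 to build the filaments of the cell. When keratinocytes differentiate they leave the basal layer, take on spinous genes, and later make granular and cornified envelope proteins such as loricrin and trichohyalin.

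The tags are what defines the clones. They share their first 33 bases and an end that begins with ccctaat, and they differ in the bases between, which are printed in capitals with the last 9 shared bases before them.
Tag19, low: gctgggatcTTAGGGATAAGGccctaat
Tag24, low: gctgggatcTTAGGGATATccctaat
Tag32, low: gctgggatcTTATccctaat
Tag6, high: gctgggatcTTAGGGATAATccctaat
Tag20, high: gctgggatcTTAGGGCTTTATccctaat
Tag28, high: gctgggatccctaata
The run between the shared ends was 12, 10 and 4 bases in the low clones and 11, 12 and 0 bases in the high clones, so its length did not separate the sides. In Tag28 the shared start and end meet directly and are together 1 base shorter. In the MK library 5 of the 6 tags were found with identical sequence. Tag6 matched an MK tag over the shorter of both lengths. No value shows whether a tag arose in more than 1 cell, so a clone here means cells that share a tag.

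Krt15 was measured at 64.1, 137 and 34.4 CPM in the low clones (Tag19, Tag24, Tag32), against 1269, 934 and 1105 CPM in the high clones (Tag6, Tag20, Tag28). Means were 78.4 ± 52.6 CPM in the low and 1103 ± 167 CPM in the high clones (SD, n = 3 clones each), a log2 ratio of -3.81. These values chose the clones. Neither side is the extreme of the library. Among the 44 other Diff_MK clones of 20 or more cells, Krt15 ranged from 21.9 to 1961 CPM with a median of 465, 8 lay below the highest low clone, 6 above the lowest high clone and 30 between the sides. The nearest clones in that gap had 158 CPM above the low side and 899 CPM below the high side. In all kept MK cells Krt15 was at 1.02 CPM.

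**Figure D1:**
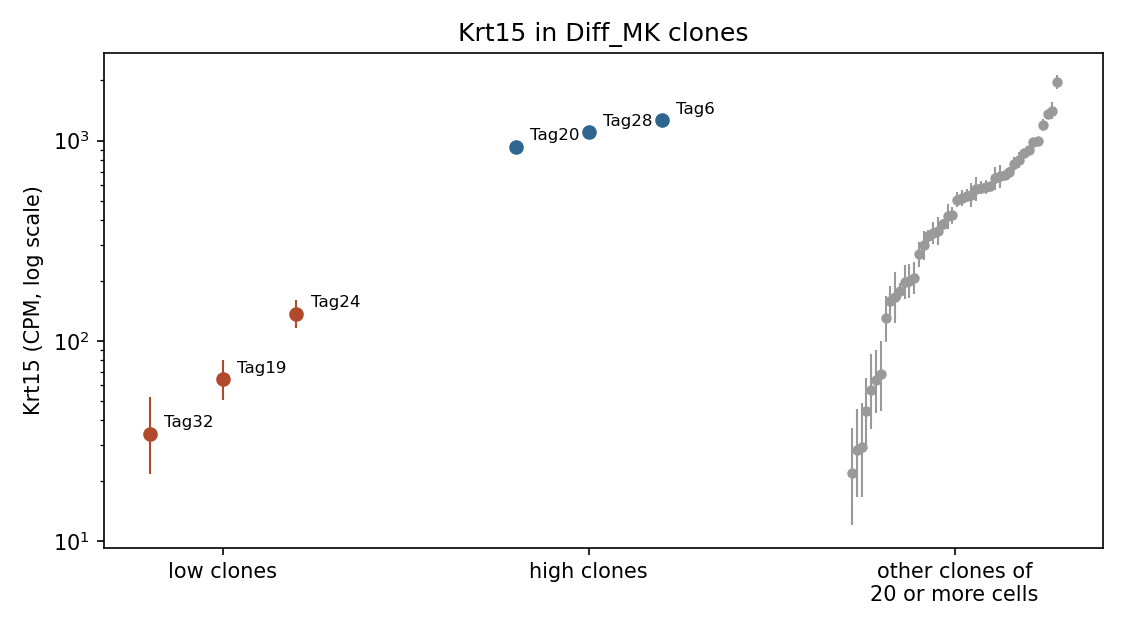
Krt15 in CPM on a log scale for the 3 low clones, the 3 high clones and the 44 other Diff_MK clones of 20 or more cells, 1 point per clone, with exact 95% Poisson intervals that cover counting error only. The low clones lie at 34.4 to 137 CPM and the high clones at 934 to 1269 CPM, and other clones fill the range between and beyond them.

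Most Krt15 RNA of the high clones sat in a minority of their cells, and the low clones held almost none of these cells. To compare cells at equal depth, each cell was thinned to 7500 UMIs, which left out 9 of the low and 19 of the high clones' cells. At least 1 Krt15 UMI was seen in 22.9%, 29.9% and 21.6% of cells of the low clones, against 46.0%, 43.2% and 53.6% in the high clones. Among cells with a Krt15 UMI, the mean was 2.75, 4.35 and 1.25 UMIs in the low clones and 27.7, 20.9 and 19.7 UMIs in the high clones. Free RNA in droplets can give such UMIs, and its part here was not tested. In MK cells, from another library with Krt15 at only 1.02 CPM, the share was 0.526%. That value does not give the free RNA of Diff_MK droplets.

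Cells with 10 or more Krt15 UMIs after thinning, a limit chosen after the values were seen, numbered 0 of 70, 3 of 67 and 0 of 37 in the low clones, against 46 of 176, 13 of 81 and 14 of 56 in the high clones. The exact 95% upper limit for the low clones without such a cell is 5.13% for Tag19 and 9.49% for Tag32. In the high clones these cells held 94.9%, 94.95% and 91.2% of the thinned Krt15 UMIs. In Tag24 the 3 cells held 67.8% of them. The share was 14.7% over the other Diff_MK clones, 535 of 3636 cells, and 0 of 6838 in MK.

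**Figure D2:**
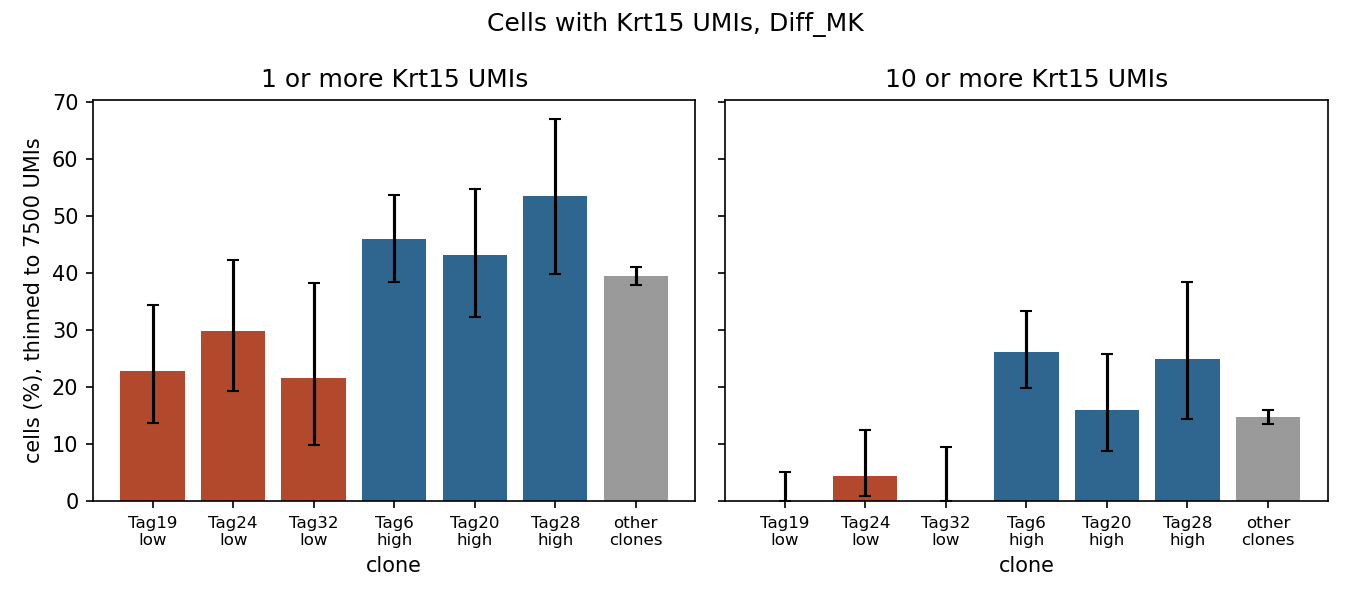
Percent of cells, thinned to 7500 UMIs, with 1 or more Krt15 UMIs (left) and 10 or more (right), for the low clones, the high clones and all other Diff_MK clones of 20 or more cells together. Bars are shares with exact 95% Clopper-Pearson intervals. Cells with 10 or more UMIs make up 0% to 4.48% of the low and 16.05% to 26.1% of the high clones.

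The Krt15-rich cells of the high clones also differed from their clone mates in other genes. Without thinning, 52, 13 and 15 cells of the high clones and 3 cells of Tag24 had 10 or more Krt15 UMIs per 7500. Krt19, a type I keratin next to Krt15 in the genome, was at 3481, 6018 and 4641 CPM in the rich cells of Tag6, Tag20 and Tag28, against 666, 608 and 841 CPM in the other cells of these clones. Lgals7, which codes for the epithelial lectin galectin-7, was at 4264, 4548 and 2138 CPM in the rich cells, against 580, 286 and 652 CPM in the others. The secreted chaperone gene Clu was at 312, 192 and 364 CPM in the rich cells and 41.4, 43.7 and 50.2 CPM in the others. Krt5, the type II keratin of basal cells, reached 7128, 5977 and 7740 CPM in the rich cells, against 2419, 2466 and 3184 CPM in the others. Pclaf, a replication factor bound to PCNA, went the other way, with 13.5, 11.6 and 50.6 CPM in the rich cells and 205, 203 and 190 CPM in the others. In each of these genes the summed levels of rich and other cells did not overlap over the 3 high clones. The same held for further genes, and the share over all genes was not counted, so these genes have no background beside them. The rich cells summed to 592869, 172164 and 197810 UMIs in Tag6, Tag20 and Tag28, so their lowest levels rest on few UMIs. Asprv1, of the granular and cornified envelope list, was at 241, 418 and 50.6 CPM in the rich cells and 21.3, 22.7 and 15.8 CPM in the others. Cxcl5, a chemokine gene, was at 18.6, 52.3 and 10.1 CPM in the rich cells and 1189, 1061 and 903 CPM in the others. The cells were split by Krt15 itself, so these values are a description.

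Across all genes the low clones differed from the high clones more often upwards. A gene is called apart here when every low clone lies on the same side of every high clone and the mean CPM differs at least 1.5-fold. Of 5590 genes at 20 CPM or more in the mean of at least 1 side, 344 were apart and higher in the low clones (6.15%) and 88 were apart and lower (1.57%), together 7.73%. With no limit on the fold, every low clone lay above every high clone for 17.2% of genes and below for 7.26%. The median log2 ratio over all 5590 genes was 0.08. Under the scaling factors of edgeR's TMM method 230 genes were higher and 140 lower, which takes the higher share of the genes apart to 62.2%, against 79.6% with CPM. Tag32, the smallest clone, was furthest from the high clones for 280 of the 344 higher genes and 68 of the 88 lower genes. Without Tag32, 236 genes were higher and 65 lower, of which 193 and 47 were among those with all 6 clones. Without Tag24, 564 were higher and 171 lower, and the lower genes numbered 165 without Tag19 and 137 without Tag20. With a clone left out fewer clones must separate, so the rule is easier to meet and these counts are not like for like.

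**Figure D3:**
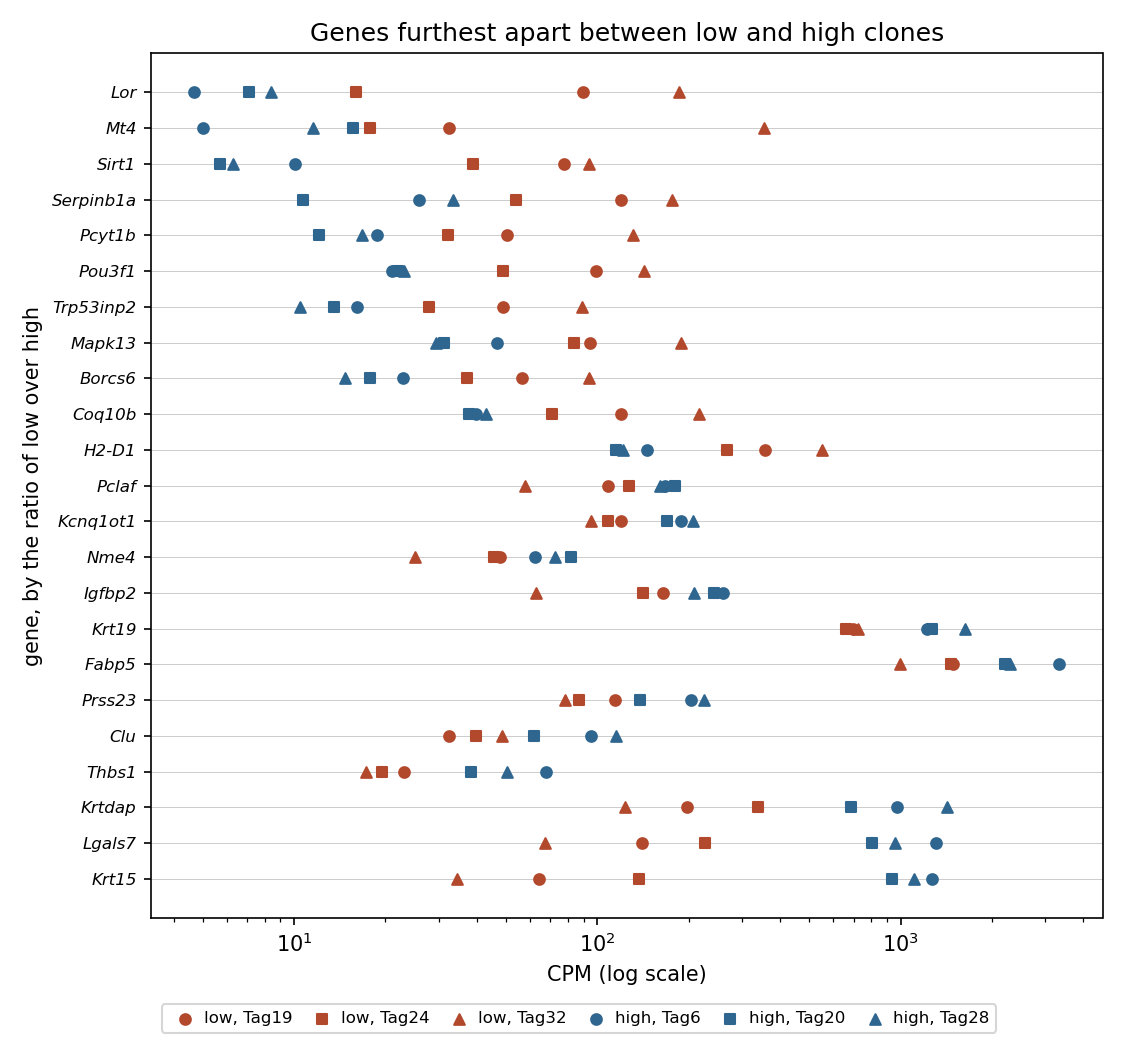
CPM on a log scale in each clone for 11 genes higher and 12 genes lower in the low clones, those furthest apart at 50 CPM or more, ordered by the ratio of low over high clones. Lor is at 16.03 to 186 CPM in the low and 4.69 to 8.37 CPM in the high clones, and Lgals7 is at 67.2 to 226 CPM in the low and 807 to 1311 CPM in the high clones.

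Beside Krt15, the genes furthest below the high clones at 50 CPM or more were Lgals7 and Krtdap, both members of the spinous list. Lgals7 was at 140, 226 and 67.2 CPM in the low clones, against 1311, 807 and 960 CPM in the high clones, a log2 ratio of -2.83. Krtdap, which codes for a secreted protein of differentiating keratinocytes, was at 198, 338 and 124 CPM in the low clones and 976, 687 and 1425 CPM in the high clones. Fabp5, an epidermal fatty acid binding protein, was at 1486, 1465 and 995 CPM in the low clones, against 3337, 2207 and 2301 CPM in the high clones. These 3 genes are the members of the spinous list that were apart, 3 of 8 measured and 0 in the other direction, against 1.57% of all genes lower. The list has 16 members, its median log2 ratio was -0.20, and Krt1, a keratin of spinous cells, is at 0 in all 6 clones. Krt10, the partner of Krt1, had 26.5, 24.5 and 18.8 CPM in the low clones and 29.1, 24.2 and 29.3 CPM in the high clones, which overlap.

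Thbs1, Clu and Igfbp2 lay below the high clones as well. Thbs1, which codes for the matrix protein thrombospondin 1, was at 23.1, 19.4 and 17.2 CPM in the low clones, against 67.6, 38.4 and 50.2 CPM in the high clones. Clu had 32.5, 39.7 and 48.5 CPM in the low and 95.1, 61.8 and 115 CPM in the high clones. Igfbp2, an IGF-binding protein, had 165, 142 and 62.5 CPM in the low clones and 259, 242 and 208 CPM in the high clones. Another member of that family, Igfbp7, lay the other way, at 605, 711 and 738 CPM in the low clones, against 353, 431 and 244 CPM in the high clones. The serine protease gene Prss23 and Pclaf, Nme4 and the noncoding Kcnq1ot1 were also lower, at log2 ratios from -1.02 to -0.79. For Pclaf the direction turned in cells below the median cell cycle share, where its log2 ratio was 0.04.

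The nearest measured keratin genes on each side of Krt15, Krt32 and Krt19, were lower in the low clones too, while Krt14, Krt16 and Krt17 overlapped. On chromosome 11 of mm10, in positions of GENCODE vM21, Krt15 (chr11:100131758-100135928) lies next to Krt19 (chr11:100140810-100148665), and Krt32, a hair keratin, lies further off on the other side (chr11:100080848-100088226), all on the minus strand. Krt19 was at 695, 662 and 726 CPM in the low clones, against 1225, 1270 and 1628 CPM in the high clones. Krt32 was at 12.8, 2.53 and 12.5 CPM in the low clones and 42.5, 41.2 and 30.4 CPM in the high clones. Krt14, the main type I keratin of basal cells, followed further along and overlapped, with 11911, 10157 and 10658 CPM in the low clones and 13275, 8756 and 15079 CPM in the high clones. Krt16 and Krt17, keratins of stressed and wounded epidermis, overlapped as well. Krt17 was split within both sides, with 924, 877 and 180 CPM in the low clones and 111, 1121 and 271 CPM in the high clones. Krt5 on chromosome 15 was lower in every low clone, at 2485, 2550 and 2108 CPM, against 3354, 2895 and 4127 CPM in the high clones, short of the 1.5-fold limit.

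When the Krt15-rich cells were left out of all clones, an alternative added after the values were seen, some genes kept their separation and others lost it. Krt15 itself was then at 64.1, 51.6 and 34.4 CPM in the low clones and 102, 84.2 and 116 CPM in the high clones, a log2 ratio of -1.01. For Krt19 the ratio was -0.08 and for Clu -0.26, and neither was apart any longer. Fabp5 was not apart either, at a log2 ratio of -0.61. Lgals7 at -1.999, Krtdap at -2.06 and Thbs1 at -1.34 were still apart, and so was Lor at 4.01. Of the genes apart with all cells, 259 of the 344 higher and 72 of the 88 lower ones were still apart.

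Lor and Tchh, of the granular and cornified envelope list, had some of the highest ratios in the low clones. Lor, which codes for loricrin, was at 89.7, 16.03 and 186 CPM in the low clones, against 4.69, 7.10 and 8.37 CPM in the high clones, a log2 ratio of 3.86. Tchh, which codes for trichohyalin, was at 35.0, 10.1 and 56.3 CPM in the low clones, against 1.67, 2.13 and 3.14 CPM in the high clones. All low clones lay above all high clones, with Tag24 nearest to them. After thinning to 7500 UMIs, Lor was seen in 12.9%, 8.96% and 35.1% of cells of the low clones, against 1.70%, 6.17% and 3.57% in the high clones. A single cell held 46.4% of the thinned Lor UMIs of Tag19, and another held 52.2% of those of Tag32. Only Lor and Tchh were apart among 15 measured members of the granular and cornified envelope list, which has 32 members, beside 6.15% of all genes higher. The median log2 ratio of that list was -0.04, and Flg, which codes for filaggrin, is at 0 in all 6 clones. Ivl, which codes for involucrin, overlapped, at 49.6, 80.2 and 64.1 CPM in the low clones and 70.3, 46.9 and 81.6 CPM in the high clones.

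The other genes furthest above the high clones have varied roles. Sirt1, a NAD-dependent deacetylase, was at 77.8, 38.8 and 93.8 CPM in the low clones, against 10.0, 5.68 and 6.28 CPM in the high clones. Mt4, a metallothionein of stratified epithelia, was at 32.5, 17.7 and 353 CPM in the low clones and 5.02, 15.6 and 11.5 CPM in the high clones, so that its ratio rests on Tag32. Pou3f1, a POU transcription factor of suprabasal keratinocytes, was at 99.1, 48.9 and 142 CPM in the low clones, against 21.1, 22.02 and 23.03 CPM in the high clones. Serpinb1a, a protease inhibitor, Pcyt1b, a phosphatidylcholine synthesis enzyme, Trp53inp2, Mapk13, a p38 kinase, Borcs6 and Coq10b had log2 ratios from 1.75 to 2.32. In each of the 11 higher genes shown Tag24 was the low clone nearest to the high side.

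H2-D1 and Ifi27, of the interferon and MHC class I list, and Il1a, of the list of inflammatory chemokines and cytokines, were higher in the low clones. H2-D1, an MHC class I heavy chain, was at 357, 267 and 549 CPM in the low clones, against 146, 115 and 121 CPM in the high clones. Ifi27, an interferon-inducible gene, was at 44.4, 22.8 and 64.1 CPM in the low clones and 14.7, 15.6 and 7.33 CPM in the high clones. These were 2 of 5 measured members of the interferon and MHC class I list, against 6.15% of all genes higher. The list has 20 members, all 5 measured ones had a ratio above 1, and its median log2 ratio was 0.23. Il1a, the alarmin interleukin 1 alpha, was at 136, 115 and 155 CPM in the low clones, against 81.7, 67.5 and 21.98 CPM in the high clones. It was 1 of 3 members higher among 8 measured in its list, with the chemokine gene Cxcl3 at a log2 ratio of 1.06 and the NF-kappaB inhibitor gene Nfkbia at 0.85. The list median was -0.01. Epcam, an epithelial adhesion molecule and the 1 member apart of the 10 in the keratinocyte identity list, was at 372, 395 and 496 CPM in the low clones, against 215, 312 and 228 CPM in the high clones. Sparc, a matricellular protein and 1 of 2 members higher among 5 measured in the list of EMT (epithelial to mesenchymal transition) and mesenchymal genes, was at 358, 567 and 324 CPM in the low clones and 143, 299 and 155 CPM in the high clones. Only these 2 of the 5 had a ratio above 1, and the list median was -0.42.

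The median log2 ratios of the basal, desmosome, cell cycle and cholesterol lists lay between -0.24 and 0.01, against 0.08 over all genes, of which 6.15% were higher and 1.57% lower. Of 17 measured basal keratinocyte genes, Krt19 alone was apart, and the list median was -0.07. Among 9 desmosome genes measured 0 were apart in either direction. The median log2 ratio was -0.09 over 35 measured G1/S genes, with 3 higher and 0 lower, and 0.01 over 47 measured G2/M genes, with 0 higher and 1 lower. Cells below the library's median share of UMIs in these cell cycle lists made up 52.0%, 42.9% and 52.6% of the low clones, against 50.3%, 32.9% and 50% of the high clones, which overlap. Cholesterol synthesis genes had a median log2 ratio of -0.24, with 1 of 22 measured members higher and 0 lower, and a median of 0.10 in cells at or above the median cell cycle share. The list of hair follicle and stem cell genes held only 3 measured members of 18, and Krt15 and Krt19 were both lower. Its bulge markers Lgr5 and Cd34 are at 0 in all 6 clones.

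The clones matched the keratinocyte label. All 10 keratinocyte identity genes were measured, and their summed level was 18965 to 21731 CPM in the low clones and 18613 to 26287 CPM in the high clones. No member of the melanocyte, fibroblast, immune, endothelial, erythroid or Merkel cell lists reached 20 CPM in the mean of a side. The immune list separated the sides, at a summed 8.44 to 15.6 CPM in the low and 1.42 to 5.23 CPM in the high clones, and so did the melanocyte list, at 2.53 to 6.25 CPM in the low and 0 to 2.13 CPM in the high clones. Their part in the results was not tested. All of the immune sum was Cd68, a lysosomal protein gene, while Ptprc, Lyz2, Cd74 and Cd3e were at 0 in all 6 clones. Median mitochondrial shares were 6.02%, 6.31% and 7.24% in the low clones and 5.98%, 6.56% and 5.53% in the high clones. A second tag held 10% or more of the tag counts in 6.67%, 12.9% and 2.63% of cells of the low clones. In the high clones this was so in 10.6%, 5.88% and 12.1% of cells. Leading tags themselves stood at 35.8%, 32.0% and 32.8% of counts (medians over cells) in the low clones. In the high clones they stood at 36.2%, 33.1% and 31.3%. Most tag counts of a typical cell thus lay outside its leading tag, and their source was not tested. Only 50, 22 and 16 cells of the low clones had a 5-fold lead over the next tag. In the high clones 104, 27 and 17 cells had it. Of the 9 cell barcodes that both RNA libraries share among kept cells, 0 were in the 6 Diff_MK clones.

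Genes apart between the sides also varied with Krt15 in clones that the rule did not use. Over the 44 other Diff_MK clones of 20 or more cells, Spearman's rho of each gene with Krt15 was taken as a description, since these clones share a library and its depth. Of the 344 genes higher in the low clones, 329 had a rho below 0, with a median of -0.44. Of the 87 genes lower in the low clones beside Krt15, 84 had a rho above 0, with a median of 0.37. Over 5589 measured genes other than Krt15, 3487 had a rho below 0, with a median of -0.10. Genes at 50 CPM or more were ranked by rho, with predicted, mitochondrial and ribosomal protein genes left out. Among them Krt19 at 0.79, Lgals7 at 0.75 and Fabp5 at 0.70 had the highest rho. Next came the lipid synthesis gene Acly at 0.70, the transcription factor gene Sox11 at 0.68 and the chaperonin gene Cct4 at 0.67. The lowest were Grn at -0.73, Cmc2 at -0.72, Cwc15 and Mrpl4 at -0.71, and Trmt112 and Fkbp1a at -0.70. Lor had a rho of -0.39 and Krtdap of 0.57. Krt17 had a rho of -0.00042.

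Cells in which the same tag led, but by less than 2-fold over the next tag, were left out of the clones. They had Krt15 at 127 CPM on the low side (11 cells, exact 95% Poisson interval 83.0 to 186) and 807 CPM on the high side (95 cells, 761 to 855). Tag19 had 159 CPM in 6 such cells and Tag24 had 82.5 CPM in 5. Of the high-side cells, 90 led with Tag6 and had 836 CPM, so the high-side value rests on Tag6. Tag20 had 42.1 CPM in 2 such cells, below Tag19 and Tag24, and Tag28 had 440 CPM in 3. These cells hold counts of a second tag by construction, and the intervals cover counting error only.

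Chromosomes 10 and 2 held the highest shares of genes higher in the low clones. On chromosome 10, 46 of 275 measured genes were higher (16.7%), with a median log2 ratio of 0.33. On chromosome 2, it was 74 of 482 genes (15.4%), with a median of 0.23. Over all chromosomes 6.15% of genes were higher. Set against the mean of the other 44 clones, the median over chromosome 10 genes was 0.10, 0.11 and 0.14 in the low clones and -0.21, -0.12 and -0.28 in the high clones. For chromosome 2 it was 0.04, 0.01 and 0.13 in the low clones and -0.12, -0.09 and -0.25 in the high clones. All 6 clones lay within the range of the other clones on chromosome 10, and on chromosome 2 Tag28 lay below that range, which ended at -0.21. Tag28 had a median of -0.44 on chromosome 13, within the range of the other clones there, which reached down to -0.63. Such complete separation of the clone medians was not particular to chromosomes 2 and 10. It was seen on 10 of 20 chromosomes, with the low clones above on 9 and below on chromosome 18. Genes lower in the low clones made up 5.44% on chromosome 8 and 4.17% on chromosome 18, against 1.57% over all chromosomes. Sirt1 lies on chromosome 10, and Ier5l and Trp53inp2 lie on chromosome 2. In MK cells of the same tags, chromosome medians of the log2 ratio lay between -0.04 and 0.04.

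**Figure D4:**
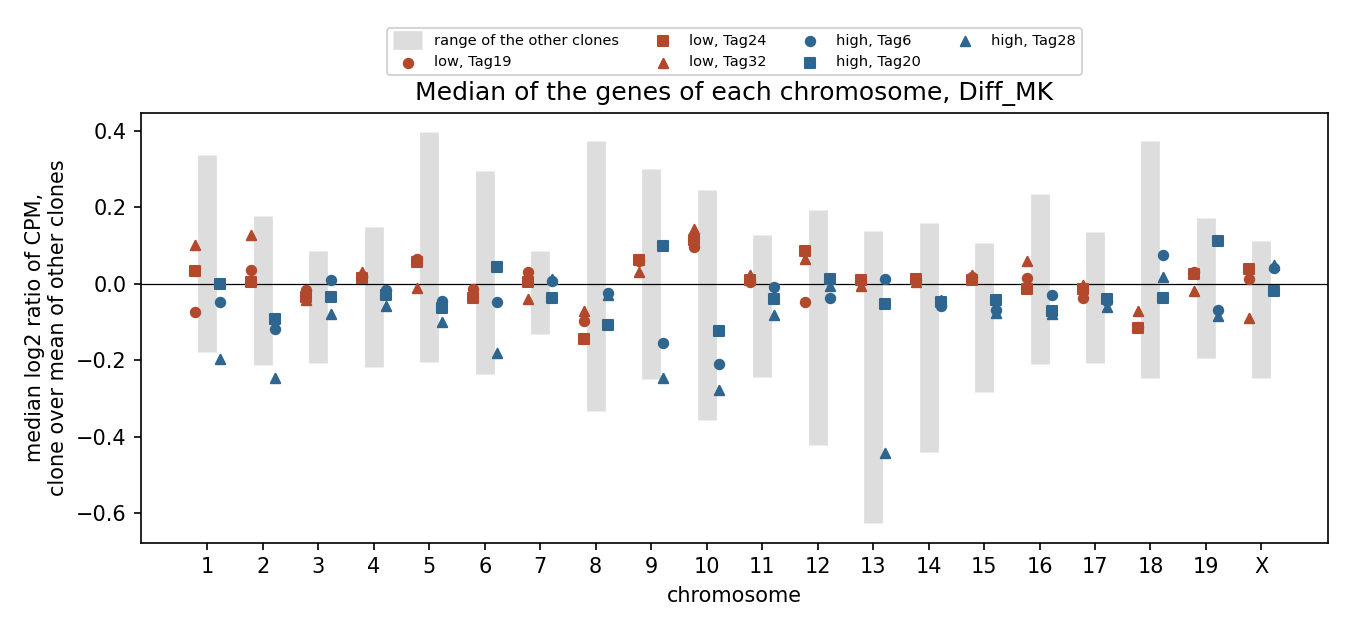
Median log2 ratio of CPM over the measured genes of each chromosome, each clone over the mean of the 44 other Diff_MK clones, with low clones left of high clones. Grey bars span the other clones. Every low clone lies above every high clone on 9 of 20 chromosomes, 2 and 10 among them, and below on chromosome 18. Tag28 lies at -0.44 on chromosome 13, where the other clones reach -0.63.

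The same tags were then followed in the MK library, which had no part in choosing the clones. It held 413 cells with these tags, 192 on the low side (61, 62 and 69 cells) and 221 on the high side (94, 64 and 63 cells). Krt15 had 0, 4 and 1 UMIs in the low-side clones and 5, 0 and 0 UMIs in the high-side clones, so the sides could not be told apart by Krt15 in MK at this depth. UMIs summed per clone were compared by edgeR's quasi-likelihood test with Benjamini-Hochberg adjustment over 7667 genes. The p-values measure the spread between clones of 1 library only. A single gene, Krt17, was higher on the low side (0.013%) and 3 were lower (0.0391%), and 329 of the 7667 genes had an unadjusted edgeR p under 0.05. DESeq2 was run on 14228 genes without the expression filter. It called 0 of them, with 64 of the 14228 at an unadjusted p under 0.05.

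Krt17 rose on the low side in MK. It had 537, 564 and 335 CPM in the low-side clones, against 246, 266 and 212 CPM in the high-side clones, a log2 ratio of 0.98 with a standard error of 0.12 and an adjusted p of 3.2e-06 (edgeR). It stayed called by edgeR without each clone in turn, while its adjusted p in DESeq2 was 0.41. In Diff_MK its clones overlapped between the sides.

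Lor and Ier5l fell on the low side in MK. Lor had 44.8, 20.4 and 35.5 CPM in the low-side clones, against 53.2, 85.9 and 74.0 CPM in the high-side clones (log2 -1.05, edgeR adjusted p 0.017). Cells with 10 or more Lor UMIs after thinning numbered 0, 0 and 1 in the low-side and 2, 2 and 1 in the high-side clones. The 1 low-side cell held 78.9% of the thinned Lor UMIs of the clone matched to Tag32. On the high side such cells held 76.5%, 70.6% and 40.5% in the clones matched to Tag6, Tag20 and Tag28, so few cells decide Lor in MK. Ier5l, an immediate early response gene relative, had 142, 116 and 103 CPM in the low-side clones, against 211, 179 and 173 CPM in the high-side clones (log2 -0.66, edgeR adjusted p 0.0078). Neither was called without Tag32 (edgeR adjusted p 0.25 for Lor and 0.32 for Ier5l) or without Tag24 (0.36 for Lor and 0.065 for Ier5l). Lor was also not called without Tag20 (edgeR adjusted p 0.13) or where the leading tag was ahead by any margin (0.59), and Ier5l was not called without Tag6 (0.25). In DESeq2 the adjusted p was 0.68 for Lor and 0.41 for Ier5l. In Diff_MK both lay the other way, higher in every low clone than in every high clone.

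**Figure D5:**
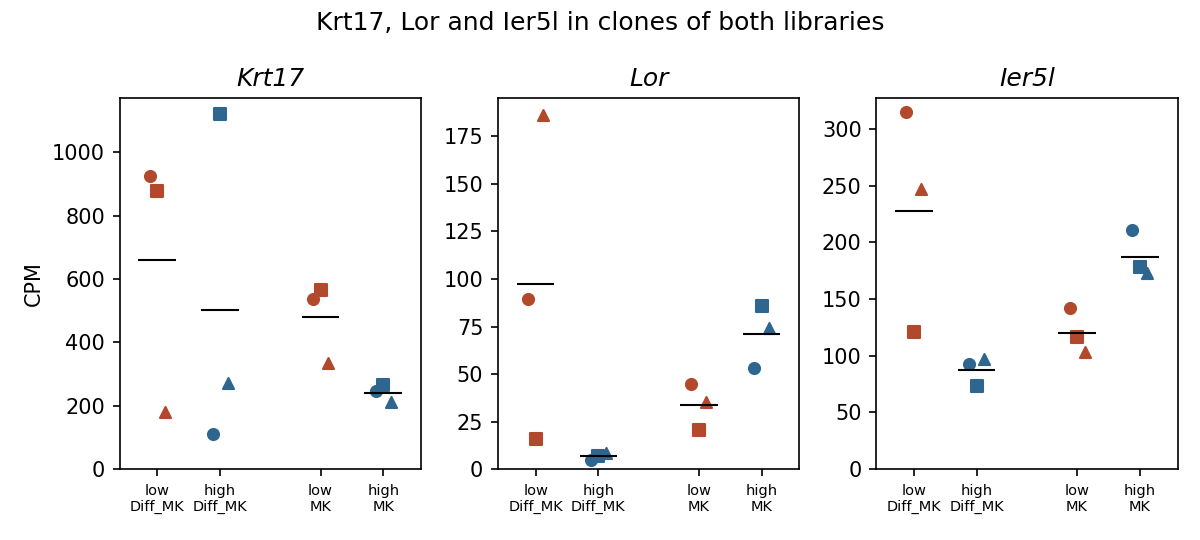
CPM per clone for Krt17, Lor and Ier5l in Diff_MK and in MK cells of the same tags, low side left of high side, with the mean as a line. Circles mark Tag19 and Tag6, squares Tag24 and Tag20, and triangles Tag32 and Tag28. In MK every low-side clone lies above the high-side clones for Krt17 and below them for Lor and Ier5l, which lie above them in Diff_MK.

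Lgals7, Krtdap and Krt19, all lower in the low Diff_MK clones, did not separate the sides in MK. Lgals7 had 39.6, 71.8 and 48.3 CPM in the low-side clones and 30.7, 18.3 and 56.2 CPM in the high-side clones. Krtdap had 631, 621 and 736 CPM in the low-side clones and 670, 448 and 755 CPM in the high-side clones. Krt19 had 299, 264 and 236 CPM in the low-side and 255, 219 and 317 CPM in the high-side clones. All 3 overlapped between the sides. Some genes that were higher in the low Diff_MK clones had a log2 ratio below 0 in MK. Their share of the higher genes, and the share over all genes, was not counted. The ratio was -0.83 for Borcs6, -0.59 for Mt4 and -0.39 for Sirt1, with overlapping clones. Pou3f1, at -0.51, was lower in every low-side clone than in every high-side clone. Il1a at 0.16, Sparc at 0.12, Igfbp7 at 0.02 and Ifi27 at 0.0029 stayed above 0 and overlapped. Fosb, a member of the AP-1 family, had 6.26, 10.7 and 9.12 CPM in the low-side and 3.41, 3.86 and 2.96 CPM in the high-side clones in MK, and 40.2, 49.8 and 64.1 CPM in the low and 26.4, 36.9 and 30.4 CPM in the high clones in Diff_MK, the same direction in both. It was too low in MK to enter the edgeR test.

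The changes in clone size overlapped between the sides. Tags of the low side held 1.58%, 1.47% and 0.801% of assigned Diff_MK cells, against 3.98%, 1.79% and 1.22% for the high side. Their shares of assigned MK cells were 1.34%, 1.36% and 1.51% for the low side and 2.06%, 1.40% and 1.38% for the high side. The log2 change, Diff_MK over MK, averaged -0.19 ± 0.64 on the low side and 0.37 ± 0.56 on the high side (SD, n = 3 clones each). The difference of -0.56 had a two-sided exact permutation p of 0.4, where 3 clones against 3 cannot give less than 0.1.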

How the data were processed

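Single-cell RNA libraries of 10x 3′ v3 chemistry and tag libraries were made from GFP-positive cells, per the labels' protocols. Deposited RNA matrices hold UMI counts per gene and cell; the file headers name Cell Ranger 6.1.2, and the submitters' processing notes name mm10. Deposited tag matrices hold counts per tag and cell. Whether these are UMIs or reads, and the tool behind them, is not given in the sources used here. Tag counts in an entry named unmapped (10.1% in Diff_MK and 18.2% in MK) were left out.

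Cells with 1000 or more genes and at most 15% mitochondrial UMIs were kept (6912 of 7569 Diff_MK and 7175 of 7780 MK barcodes) and joined to tags on the 16-base barcode. A cell belongs to its leading tag where that tag had 3 or more counts, 2-fold or more over the second tag, which assigned 4747 Diff_MK cells to 128 clones and 4560 MK cells to 899 clones. Doublets were not removed, and no clustering was done. UMIs were summed per clone and scaled to CPM.

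The clones, the genes and 36 gene lists with 615 members were chosen with earlier results of these data known. Named genes are Krt15; the 12 genes apart on each side with the most extreme ratio at 50 CPM or more (10 counts added, predicted, mitochondrial and ribosomal protein genes left out); of each list the most abundant member and those with the largest ratios; keratinocyte genes at 50 CPM or more; the 6 genes of highest and of lowest rho; and genes called in MK. Krt10, Krt32, Flg, Krt1, Lgr5, Cd34, Ipmk, Tmem50b, Cxcl3, Nfkbia and the immune markers lie outside that rule and were picked with their values known. The ranking by rho used the same minimum of 50 CPM, in the mean of the other clones, and left out the same gene classes. Gene positions are from GENCODE vM21, which holds 32158 of 32285 gene identifiers (99.6%). Intervals are exact at the 95% level and cover counting error only. edgeR 4.0.16 (filterByExpr, TMM, quasi-likelihood) and DESeq2 1.42.0 ran in R 4.3.3 on the MK clones. Both the edgeR step and the rule for genes apart were tested on simulated data. edgeR called 200 of 200 genes changed 3-fold and 5 of 7484 unchanged genes. The rule for genes apart found 100 of 100 genes raised 4-fold and 100 of 100 lowered 4-fold. It also found 121 of 5297 unchanged genes. The simulated spread between clones was a chosen setting, not one taken from these clones. A gene withheld from the text is counted among the calls and not reported here.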

Additional observations from a re-analysis of the deposited data

Results flagged for a closer look

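Lor, Ier5l, Ipmk and Tmem50b were apart in opposite directions in the 2 libraries, each with every low clone above every high clone in Diff_MK and every low-side clone below every high-side clone in MK, at 1.5-fold or more in both. The difference between the libraries was not tested, and the direction in Diff_MK comes from clones chosen there. The number of genes apart in the same direction in both libraries is not given here, so these genes have no background beside them. For Lor the log2 ratio of low over high was 3.86 in Diff_MK and -1.08 in MK, a difference of 4.94. Ier5l, with 315, 121 and 247 CPM in the low and 92.7, 73.2 and 97.3 CPM in the high Diff_MK clones, had 1.38 in Diff_MK and -0.64 in MK, a difference of 2.01. Ipmk, an inositol phosphate kinase, had 1.54 in Diff_MK and -0.89 in MK, a difference of 2.44. Tmem50b had 1.66 in Diff_MK and -0.78 in MK, also a difference of 2.44. Ipmk and Tmem50b were not called in MK by edgeR (adjusted p 0.95 and 0.99).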

How the results depend on the processing

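The Krt15 log2 ratio of low over high clones stayed below 0 under all 17 alternatives, from -4.49 to -1.01. It was -2.62 in cells at or above the library's median cell cycle share and -1.01 without the Krt15-rich cells, and -4.49 to -3.46 when each clone was left out in turn. The number of genes apart moved more, and leaving out a clone also makes the rule for genes apart easier to meet. Genes higher numbered 585 in cells below the median cell cycle share, 172 at a minimum of 50 CPM, 834 with no minimum and 111 at 2-fold, and 236 to 564 without each clone (564 without Tag24). Genes lower numbered 140 under TMM, 136 under median-of-ratios factors, 158 where the leading tag had 5 or more times the counts of the second, 138 at or above the median cell cycle share, 143 at a minimum of 10 CPM, 33 at 50 CPM, 367 with no minimum and 17 at 2-fold, and 65 to 171 without each clone (165 without Tag19, 171 without Tag24, 137 without Tag20). Of 44 named genes that were apart, 30 were apart under the 5-fold margin between tags, a rule that left 16 to 50 cells in the low clones. In cells below the median cell cycle share, Pclaf had a log2 ratio of 0.042, and the list medians of integrins and matrix (0.15) and Notch (0.064) turned positive. Notch was also positive, at 0.041, with a minimum of 10 CPM. In cells at or above that share the medians of desmosome (0.066) and cholesterol synthesis (0.10) turned positive, and desmosome was at 0.0053 without the Krt15-rich cells. Their causes were not tested.

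In MK, genes higher on the low side numbered 2 without the expression filter, 0 with DESeq2 and 1 to 2 without each clone. Genes lower numbered 13 without the filter, 0 with DESeq2 and 0 to 6 without each clone: 6 without Tag19, 1 without Tag24, 0 without Tag32, 6 without Tag20. Without Tag6, which is also the set of tags identical in full, Lor was called and Ier5l was not. The size difference between the sides was -0.60 to -0.27 under 3 alternatives, with exact permutation p from 0.5 to 0.8. No paired analysis was possible because tags of one side have no partner on the other. Clones share 1 library a group, so no value measures variation between cultures, and with 38 cells in Tag32 few cells decide low genes.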
